A study of Saccharomyces cerevisiae with 14 samples.

Results

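The respiratory chain of budding yeast passes electrons from NADH and succinate to oxygen, and the proton gradient it builds drives the ATP synthase. *Saccharomyces cerevisiae* has no complex I and oxidises NADH with single-polypeptide enzymes, Ndi1 on the inner and Nde1 and Nde2 on the outer face of the inner membrane. Succinate dehydrogenase (complex II) also feeds electrons in, and cytochrome c carries them from the cytochrome bc1 complex (complex III) to cytochrome c oxidase (complex IV). The catalytic core of complex IV, cytochrome b and the membrane ring of the ATP synthase are encoded in mitochondrial DNA, whereas most other subunits are nuclear. Many of the nuclear genes are activated through CCAAT boxes by the Hap2/3/4/5 complex and are repressed by glucose.

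The 40 nuclear genes described here were chosen by the complex to which their products belong and not by their values. They are 3 NADH dehydrogenase genes, 4 of complex II, 9 of complex III, 2 of cytochrome c, 9 of complex IV and 13 of the ATP synthase, out of 6612 transcripts in the deposited tables. RNA had been sequenced from yCFK51 cells with wild-type *ARP8* and from yPB4 cells, in which *ARP8* carries the changes S65A and S233A (*arp8-AA*), so that 2 serines of this subunit of the INO80 chromatin remodeller, targets of the Dbf4-dependent kinase, are alanines. Both strains are MAT a with *his3Δ1*, *leu2Δ0* and *ura3Δ0*. The label of the *ARP8* strain also lists *met15Δ0* and that of *arp8-AA* does not, so the alleles cannot be told apart in any genotype comparison, and each genotype is 1 strain. Asynchronous cultures in glucose medium gave 3 libraries per genotype. Cells arrested in G1 with α-factor and released gave 2 libraries per genotype at 10 min, labelled G1, and 2 at 20 min, labelled early S. The genotypes were thus matched by time after release and not by stage. The paper reports that *arp8-AA* cells entered S phase later than the wild type after such a release. At 10 and 20 min, genotype and any difference in cell cycle position therefore cannot be told apart.

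The 14 libraries held 1864995 to 6016858 estimated counts, and the 40 genes took between 0.294% and 0.491% of them. Transcripts of MAT a cells summed to 1170 to 1534 CPM (counts scaled to a TMM-normalized library total) in the asynchronous and 305 to 2051 CPM in the released libraries. Those of MAT alpha cells summed to 1.01 to 5.96 and 8.88 to 14.3 CPM. The MAT a sum was also lower in replicate 2 than in replicate 1 in all 4 released groups. Mitochondrially encoded transcripts were present in every library. The core histone transcripts, which peak in S phase, separated the replicates at 10 min: they summed to 1104 CPM in *ARP8* replicate 1 and 5750 CPM in replicate 2, and to 855 CPM in *arp8-AA* replicate 1 and 3370 CPM in replicate 2. At 20 min they summed to 5008 and 8472 CPM in *ARP8* and to 2998 and 9136 CPM in *arp8-AA*. Each replicate rose between the times, but *ARP8* replicate 2 at 10 min lay above *ARP8* replicate 1 at 20 min. The labels G1 and early S thus do not order all libraries by these transcripts. The replicate was a block in every test. In bulk RNA, fewer cells of a type and less RNA per cell cannot be told apart.

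Several members come as alternative forms, and how well their reads can be told apart depends on their sequences. *COX5A* (YNL052W_mRNA, chrXIV:531725-532186, plus strand of build R64) and *COX5B* (YIL111W_mRNA, chrIX:155222-155765, plus strand, with an intron) encode the alternative forms of subunit V of complex IV, the former the main form in air and the latter the form of low oxygen. Their proteins are 65.3% identical over 150 aligned residues. Their coding sequences share no run longer than 12 bases, shown here in capitals within their surroundings (coding bases 232 to 273 of *COX5A* and 223 to 264 of *COX5B*):
COX5A: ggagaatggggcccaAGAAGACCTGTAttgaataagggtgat
COX5B: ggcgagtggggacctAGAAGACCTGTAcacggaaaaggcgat
*CYC1* (YJR048W_mRNA, chrX:526335-526664, plus strand) and *CYC7* (YEL039C_mRNA, chrV:79636-79977, minus strand) encode iso-1- and iso-2-cytochrome c, again the forms of ample and of low oxygen. Their proteins are 84.4% identical, and a run of 35 bases, in capitals, is common to both genes (coding bases 211 to 275 of *CYC1* and 223 to 287 of *CYC7*):
CYC1: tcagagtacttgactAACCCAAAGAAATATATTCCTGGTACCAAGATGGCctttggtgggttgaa
CYC7: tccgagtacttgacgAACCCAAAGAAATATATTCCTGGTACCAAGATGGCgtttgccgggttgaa
This run holds 5 words of 31 bases, the length by which reads were matched, which is 1.67% of those of *CYC1* and 1.60% of those of *CYC7*. None of the other 38 members shared a 31-base word with another RefSeq coding sequence. This includes *NDE1* and *NDE2*, whose proteins are 60.4% identical, and *NDE1* and *NDI1*, at 51.1%.

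The promoters were searched for 4 motifs in the 250 bases before and 50 bases after each coding start, on both strands. A CCAAT box stood in 33 of the 40 windows (82.5%), against 43.2% of 6026 windows of all genes. The longer form ACCAATNA, which contains CCAAT, stood in 16 of 40 (40%) against 5.73%. It occurred in 7 of 13 ATP synthase genes, 5 of 9 of complex IV, 2 of 9 of complex III and 2 of 3 NADH dehydrogenase genes, and in none of complex II or cytochrome c. The stretches with the box in capitals are shown for the member of highest level in each of these classes and for *COX5B*, read in the direction of the box:
ATP17, chrIV:1228369-1228400, plus strand: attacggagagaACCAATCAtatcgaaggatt
COX13, chrVII:144583-144614, plus strand: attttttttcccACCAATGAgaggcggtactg
QCR7, chrIV:1496711-1496742, minus strand: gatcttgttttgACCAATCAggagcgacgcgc
NDE1, chrXIII:556559-556590, minus strand: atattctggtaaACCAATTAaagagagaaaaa
COX5B, chrIX:155137-155168, plus strand: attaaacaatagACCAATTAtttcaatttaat
The Hap1 motif, a pair of CGG triplets around TA, was found once, in *QCR6*, against 0.133% of all windows. ATTGTT, the core of the site of Rox1, the heme-dependent repressor of hypoxic genes, stood in 16 of 40 windows (40%) against 35.2%. The windows of *COX5A* and *COX5B* are printed whole because *COX5B* gave the lowest p in 4 of the 8 comparisons, with CCAAT, its longer form and the ATTGTT core in capitals (R64, plus strand of both chromosomes; ATTGG and AACAAT are matches on the other strand):
COX5A, chrXIV:531475-531774: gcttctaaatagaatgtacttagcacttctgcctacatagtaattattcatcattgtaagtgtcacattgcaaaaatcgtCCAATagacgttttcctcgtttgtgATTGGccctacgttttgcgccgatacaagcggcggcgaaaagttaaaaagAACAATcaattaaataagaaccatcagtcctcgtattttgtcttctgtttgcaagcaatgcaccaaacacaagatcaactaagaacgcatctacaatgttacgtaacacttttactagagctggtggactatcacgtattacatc
COX5B, chrIX:154972-155271: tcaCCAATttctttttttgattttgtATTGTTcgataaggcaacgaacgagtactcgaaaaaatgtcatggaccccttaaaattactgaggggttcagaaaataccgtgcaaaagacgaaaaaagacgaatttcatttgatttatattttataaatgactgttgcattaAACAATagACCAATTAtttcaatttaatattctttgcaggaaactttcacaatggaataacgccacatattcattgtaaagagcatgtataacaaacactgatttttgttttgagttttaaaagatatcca
The *COX5A* window held CCAAT boxes starting 170 and 145 bases before the coding start and 1 Rox1 core. The *COX5B* window held CCAAT boxes 247 and 72 bases before it and 2 Rox1 cores. The windows of *CYC1* and *CYC7* held none of the 4 motifs, and sequence further upstream was not searched. A match is a description of the letters and not a site.

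Levels between genes are given as TPM, a measure that divides counts by effective transcript length and scales them to the library. The median over the 14 libraries spanned from 668 TPM for *ATP18*, a small membrane subunit of the ATP synthase (YML081C-A_mRNA, chrXIII:103983-104162, minus strand), to 0.321 TPM for *NDE2* (YDL085W_mRNA, chrIV:303211-304848, plus strand). *COX9* and *ATP17* followed *ATP18* with 620 and 566 TPM. The shortest transcripts lead this order: *ATP18* and *COX9* have 180 bases and an effective length of 53.7 bases, so that few fragments support a high TPM. *ATP18* ranged from 476 to 1031 TPM and *COX9* from 413 to 1002 TPM, so the order of both is not resolved. The lowest members after *NDE2* were *CYC7* with 1.07 TPM, *SDH1* with 7.65, *CYT1* with 10.1 and *SDH4* with 15.2 TPM.

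Subunits of 1 complex differed widely in level. In the ATP synthase the medians ran from 22.3 TPM for *ATP14* (subunit h) to 668 TPM, with *ATP1* and *ATP2*, the α and β subunits of the catalytic head, at 85.8 and 160 TPM. In complex II the membrane anchor *SDH3* had 100 TPM and the flavoprotein *SDH1* 7.65 TPM. In complex III *QCR8* had 515 TPM and *CYT1*, cytochrome c1, 10.1 TPM. In complex IV all 9 genes lay between 104 TPM (*COX5B*) and 620 TPM. *NDE1* had 59.3 TPM and *NDI1* 22.8 TPM, and *CYC1* had 168 TPM.

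**Figure D1:**
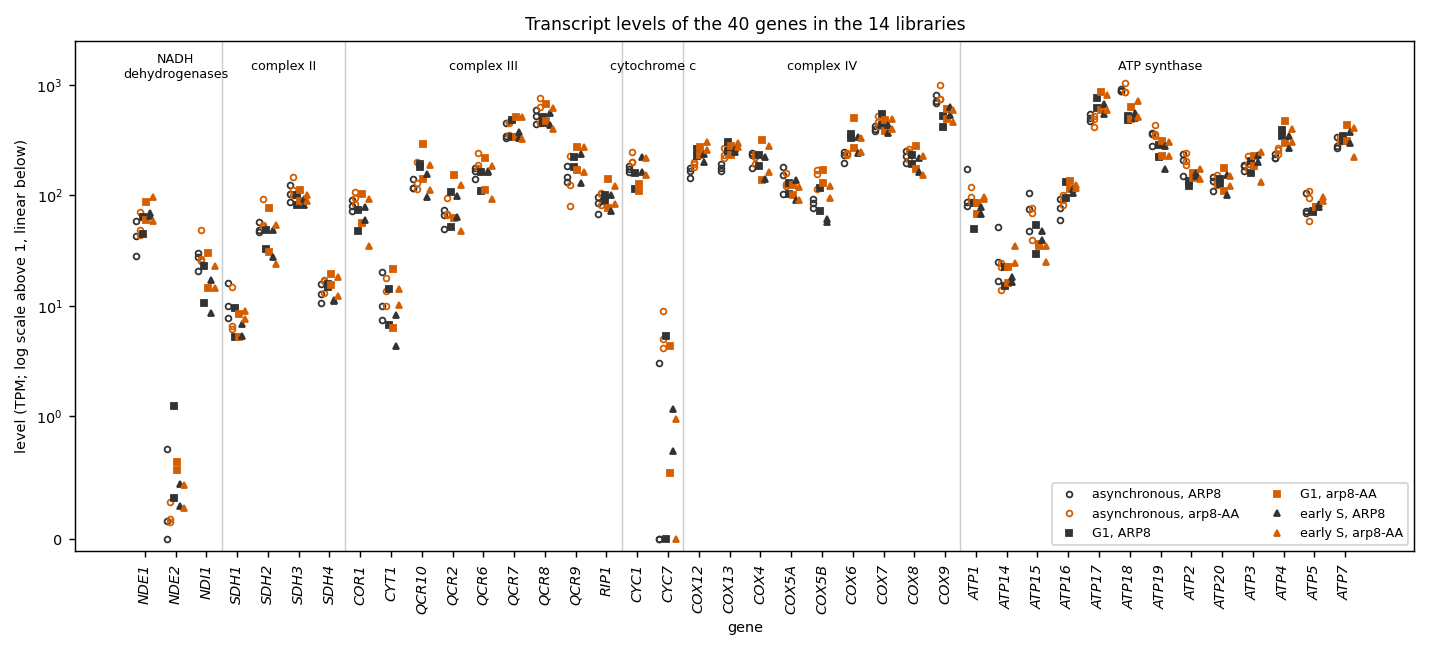
TPM of each of the 40 genes (log scale above 1, linear below) in each of the 14 libraries, grouped by complex. Marker shape gives the culture (open circles asynchronous, squares G1, triangles early S) and colour the genotype (black *ARP8*, orange *arp8-AA*). *NDE2* (median 0.321) and *CYC7* (1.07) are the lowest genes, and *ATP18* (668) has the highest median.

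The summed TPM of the 40 genes was 7489 ± 646 (SD, n = 3) in asynchronous *ARP8* and 8276 ± 1066 (SD, n = 3) in asynchronous *arp8-AA*. At 10 min it was 7358 ± 47.9 (SD, n = 2) and 8022 ± 1933 (SD, n = 2), and at 20 min 7072 ± 1095 (SD, n = 2) and 7658 ± 1802 (SD, n = 2). The groups overlapped in asynchronous cells and at both times. TPM was not TMM-normalized, and in asynchronous cells more transcripts of all kinds stood apart above *ARP8* than below it in TPM (1007 and 133), so genotypes were compared in CPM.

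In asynchronous cells the design asks whether the loss of the Arp8 phosphorylation sites moves the transcriptome. None of the 38 members that passed the count filter was called (adjusted p under 0.05), while 49 of 5204 transcripts were (0.942%). That count was 4 without the replicate block, and leaving out 1 library gave 12 (without *arp8-AA* replicate 3) to 94 (without *arp8-AA* replicate 1), with 14 without *ARP8* replicate 3. *NDE2* and *CYC7* did not pass the filter. At an unadjusted p under 0.05 there were 2 members higher and 2 lower in *arp8-AA*, 10.5% of the 38, against 15.9% of all transcripts tested. The members' median log2 fold change was 0.05 with 23 of 38 above 0, against a median of -0.003 over all transcripts. The log2 fold changes of the members ran from -0.70 to 0.64, with a median SE of 0.13. Without replicate 1 of either genotype the median was -0.02.

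*COX5B* had the largest positive difference and the lowest p of the members. Its TMM-normalized CPM was 43.9, 55.8 and 52.1 in *ARP8* replicates 1 to 3 and 88.5, 66.6 and 82.5 in *arp8-AA*. The groups did not overlap and the mutant was higher in 3 of 3 replicates. The log2 fold change was 0.64 ± 0.16 (SE), with an adjusted p of 0.0945 by edgeR's quasi-likelihood test. Without the filter on low counts it was called (adjusted p = 0.0224), and over the other alternatives with an adjusted p this ran up to 0.356. *COX5A* had 105, 95.4 and 63.7 CPM in *ARP8* and 86.7, 73.0 and 68.4 CPM in *arp8-AA*, with overlapping groups and a log2 fold change of -0.20. As a share of the TPM of both forms, *COX5B* made up 30.0%, 37.5% and 45.6% in *ARP8* and 51.1%, 48.3% and 55.2% in *arp8-AA*. These shares did not overlap between the genotypes, and their difference was not tested.

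*COX13*, an accessory subunit of complex IV, was the other tested member whose groups did not overlap in CPM. It had 74.8, 90.8 and 84.4 CPM in *ARP8* and 109, 97.6 and 95.4 CPM in *arp8-AA* (log2 fold change 0.27 ± 0.12 SE, adjusted p = 0.313 by edgeR). Thus 2 of 38 members did not overlap, both higher in *arp8-AA*, while over all transcripts 16.2% did not (463 higher and 378 lower). In TPM, a unit tried after the data were seen, *QCR6*, *CYC1* and *COX12* were also separate and higher, 5 of 38 against 21.9% of all transcripts.

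*SDH1* (YKL148C_mRNA, chrXI:169207-171129, minus strand), the catalytic flavoprotein of complex II, gave the second lowest p. It had 55.8, 37.3 and 28.8 CPM in *ARP8* and 47.2, 23.7 and 19.9 CPM in *arp8-AA*. The mutant was lower in every replicate pair, but replicate 1 of both genotypes stood above the other 2 and the groups overlapped. The log2 fold change was -0.45 ± 0.16 (SE), adjusted p = 0.218 by edgeR. The remaining genes of complex II, *SDH2*, *SDH3* and *SDH4*, had log2 fold changes of 0.21, 0.07 and 0.14.

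*ATP14* (YLR295C_mRNA, chrXII:721999-722373, minus strand) had the most negative value of the members, a log2 fold change of -0.70 ± 0.31 (SE) with an adjusted p of 0.304 by edgeR. Its CPM was 21.7, 7.38 and 11.1 in *ARP8* and 9.30, 5.92 and 8.71 in *arp8-AA*. The groups overlapped, and the 14 libraries held 339 counts of it in all. Of the 13 ATP synthase genes 9 were below 0, with a median of -0.04. *ATP1* had 513, 270 and 251 CPM in *ARP8* and 321, 289 and 239 CPM in *arp8-AA*, where the high value of *ARP8* replicate 1 stands apart. *ATP18* and *ATP4* (subunit b of the stator) lay within 80.5 to 94.1 and 248 to 286 CPM over all 6 libraries.

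Complex III had 8 of 9 genes above 0 with a median of 0.11, and no gene of it had an unadjusted p under 0.05. *NDE1* had 177, 137 and 91.0 CPM in *ARP8* and 196, 151 and 122 CPM in *arp8-AA*. *NDI1* had 82.9, 80.7 and 61.2 CPM against 121, 72.0 and 67.2 CPM. *NDE1* was higher in the mutant in 3 of 3 replicates and *NDI1* was not, and the groups of both overlapped. *CYC1* had 61.8, 61.3 and 57.6 CPM in *ARP8* and 61.7, 83.3 and 62.2 CPM in *arp8-AA*, a log2 fold change of 0.19.

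The low members can be compared as sums of counts only. *CYC7* was listed with 2, 0 and 0 counts in asynchronous *ARP8* and 8, 3 and 4 in *arp8-AA*. The ratio of rates was 6.62, with an exact 95% interval of 1.54 to 59.7 that covers counting error alone. At 10 min the counts were 0 and 6 in *ARP8* and 3 and 1 in *arp8-AA*, and at 20 min 1 and 1 against 0 and 1. Without the count filter, edgeR gave *CYC7* a log2 fold change of 2.41 ± 1.18 (SE) in asynchronous cells with an adjusted p of 0.340. *NDE2* held 0 to 4 counts in the asynchronous and 2 to 9 in the synchronised libraries, and its ratio of rates in asynchronous cells was 0.706 (0.140 to 3.28).

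**Figure D2:**
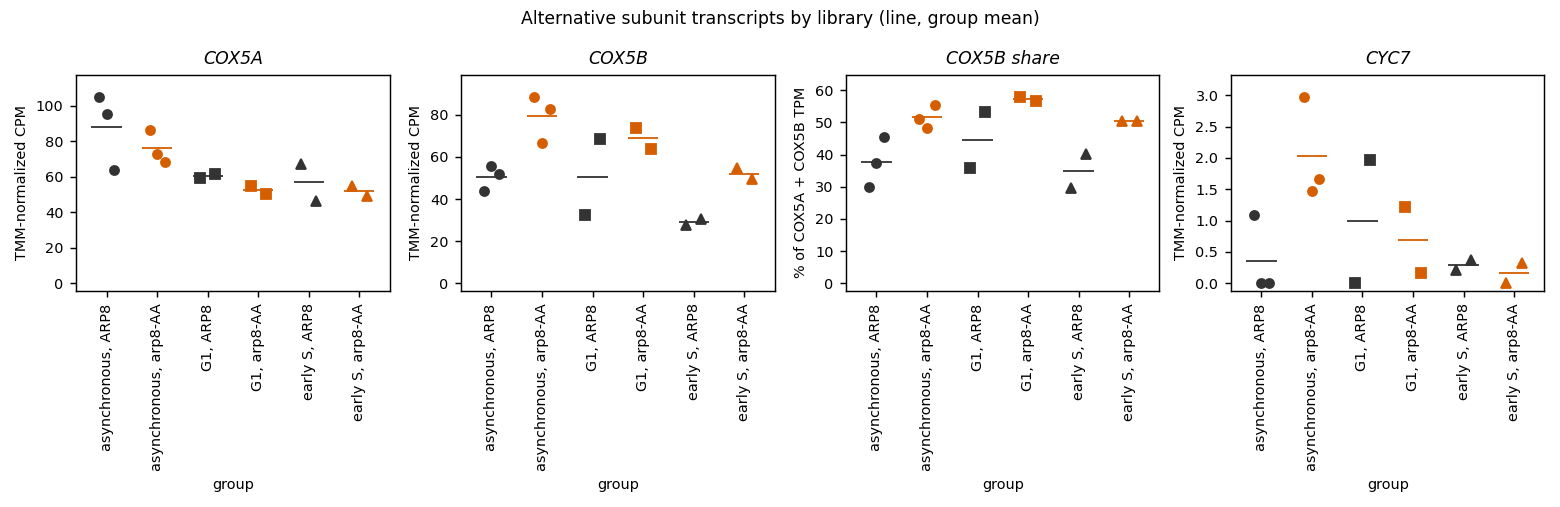
TMM-normalized CPM of *COX5A* and *COX5B*, the share of *COX5B* in their summed TPM (percent) and the CPM of *CYC7*, by library (black *ARP8*, orange *arp8-AA*), with a line at the group mean. The 3 asynchronous *arp8-AA* libraries lie between 66.6 and 88.5 CPM of *COX5B*, above the 43.9 to 55.8 CPM of *ARP8*, and the *CYC7* panel stays within 3 CPM.

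At 10 min after release 0 of 38 members were called, and 0 of 5453 transcripts (0%), with edgeR. DESeq2 called 5 transcripts and edgeR on the 10 min libraries alone 48, with 0 members in both. At an unadjusted p under 0.05 edgeR had 154 transcripts and 0 members. The members' median log2 fold change was -0.05, with 13 of 38 above 0. This median is not stable to single libraries: it was -0.31 without *ARP8* replicate 1 and 0.26 without *ARP8* replicate 2 at 10 min, and -0.22 and 0.09 without replicates 1 and 2 of *arp8-AA*. Between the replicates of *ARP8* at 10 min, 27 of 38 members were higher in replicate 2, whereas 32 of 38 were lower in replicate 2 of *arp8-AA*. The histone sums given above differ between the same replicates, and their part in the result was not tested.

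The 3 members of lowest p at 10 min were *COX7*, *NDE1* and *COX5B*. *COX7*, a small subunit of complex IV, had 38.3 and 62.2 CPM in *ARP8* and 40.02 and 36.2 CPM in *arp8-AA*, so that 1 *ARP8* library stood above the other 3. *NDE1* had 144 and 133 CPM in *ARP8* and 191 and 149 CPM in *arp8-AA*, without overlap and higher. *COX5B* had 32.4 and 68.4 CPM in *ARP8* and 74.0 and 63.9 CPM in *arp8-AA*, with *ARP8* replicate 2 inside the range of the mutant. Their log2 fold changes were -0.41 ± 0.24, 0.28 ± 0.17 and 0.46 ± 0.28 (SE), each with an adjusted p of 1.00 by edgeR. In all, 3 of 38 members did not overlap at 10 min, against 16.2% of all transcripts. Besides *NDE1* these were *CYC1*, with 42.6 and 39.8 CPM in *ARP8* and 28.7 and 37.2 CPM in *arp8-AA*, and *COX5A*, with 59.6 and 61.8 CPM against 54.98 and 50.1 CPM, both lower in the mutant. The sign of *COX7* turned without *ARP8* replicate 2 (0.066) and that of *COX5B* without *ARP8* replicate 1 (-0.048).

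At 20 min 0 of 38 members were called, against 1 of 5453 transcripts (0.0183%). The members' median log2 fold change was 0.17 with 28 of 38 above 0, against 0.02 over all transcripts. At an unadjusted p under 0.05 there were 3 members, all higher in *arp8-AA* (7.89% of the 38, against 7.12% of all transcripts). The groups did not overlap for 12 of 38 members, 11 higher and 1 lower, while over all transcripts 29.3% did not overlap (835 higher and 763 lower). The 11 belonged to complex II (*SDH1*, *SDH3*), complex III (*CYT1*), complex IV (*COX5B*, *COX7*, *COX12*, *COX13*) and the ATP synthase (*ATP1*, *ATP5*, *ATP14*, *ATP18*). The 1 lower member was *ATP15*, the ε subunit, with 4.54 and 4.04 CPM in *ARP8* and 3.26 and 2.62 CPM in *arp8-AA*. Members share their libraries and are not replicates. The median was 0.02 without *ARP8* replicate 2 at 20 min, 0.05 without *arp8-AA* replicate 1 and 0.29 without *ARP8* replicate 1.

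*COX5B* again had the lowest p. It had 27.7 and 30.5 CPM in *ARP8* and 54.7 and 49.5 CPM in *arp8-AA*, a log2 fold change of 0.85 ± 0.29 (SE) with an adjusted p of 0.694 by edgeR. *COX5A* had 67.5 and 46.3 CPM in *ARP8* and 54.7 and 49.5 CPM in *arp8-AA*, with the mutant inside the range of *ARP8*. The *COX5B* share of TPM was 29.6% and 40.3% in *ARP8* and 50.6% in both *arp8-AA* libraries. At 10 min the share was 35.7% and 53.1% in *ARP8* and 57.9% and 56.6% in *arp8-AA*. In each of the 3 settings the lowest mutant share was above the highest *ARP8* share, a difference that was not tested. At 10 min *COX5B* itself overlapped between genotypes and *COX5A* was lower in *arp8-AA* without overlap.

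*CYT1* (YOR065W_mRNA, chrXV:447439-448368, plus strand) had 10.2 and 5.51 CPM in *ARP8* and 16.6 and 13.8 CPM in *arp8-AA* at 20 min. Its log2 fold change of 1.01 ± 0.37 (SE) was the largest of the 38 tested members in a genotype comparison, with an adjusted p of 0.694 by edgeR. In the other settings it overlapped between genotypes, with 30.9, 16.1 and 12.1 CPM against 24.9, 21.2 and 14.1 CPM in asynchronous cells and 16.6 and 10.2 CPM against 24.3 and 7.90 CPM at 10 min. *NDI1* had 38.3 and 19.8 CPM in *ARP8* and 47.2 and 35.4 CPM in *arp8-AA* at 20 min (log2 fold change 0.55 ± 0.21 SE), and 47.3 and 28.9 CPM against 60.6 and 32.5 CPM at 10 min. Replicate 1 was higher than replicate 2 in all 4 groups, and within each replicate number the mutant was higher.

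Averaged over both times, 0 of 38 members were called, against 5 of 5453 transcripts (0.0917%). The lowest p were those of *COX5B* (log2 fold change 0.65 ± 0.20 SE, adjusted p = 0.543 by edgeR), higher in the mutant in 3 of 4 pairs, of *NDI1* (0.40 ± 0.15 SE, 4 of 4 pairs) and of *CYT1* (0.57 ± 0.25 SE, 3 of 4 pairs). *COX5B* thus had log2 fold changes of 0.64, 0.46 and 0.85 in asynchronous cells, at 10 min and at 20 min, the first from libraries separate from the other 2.

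**Figure D3:**
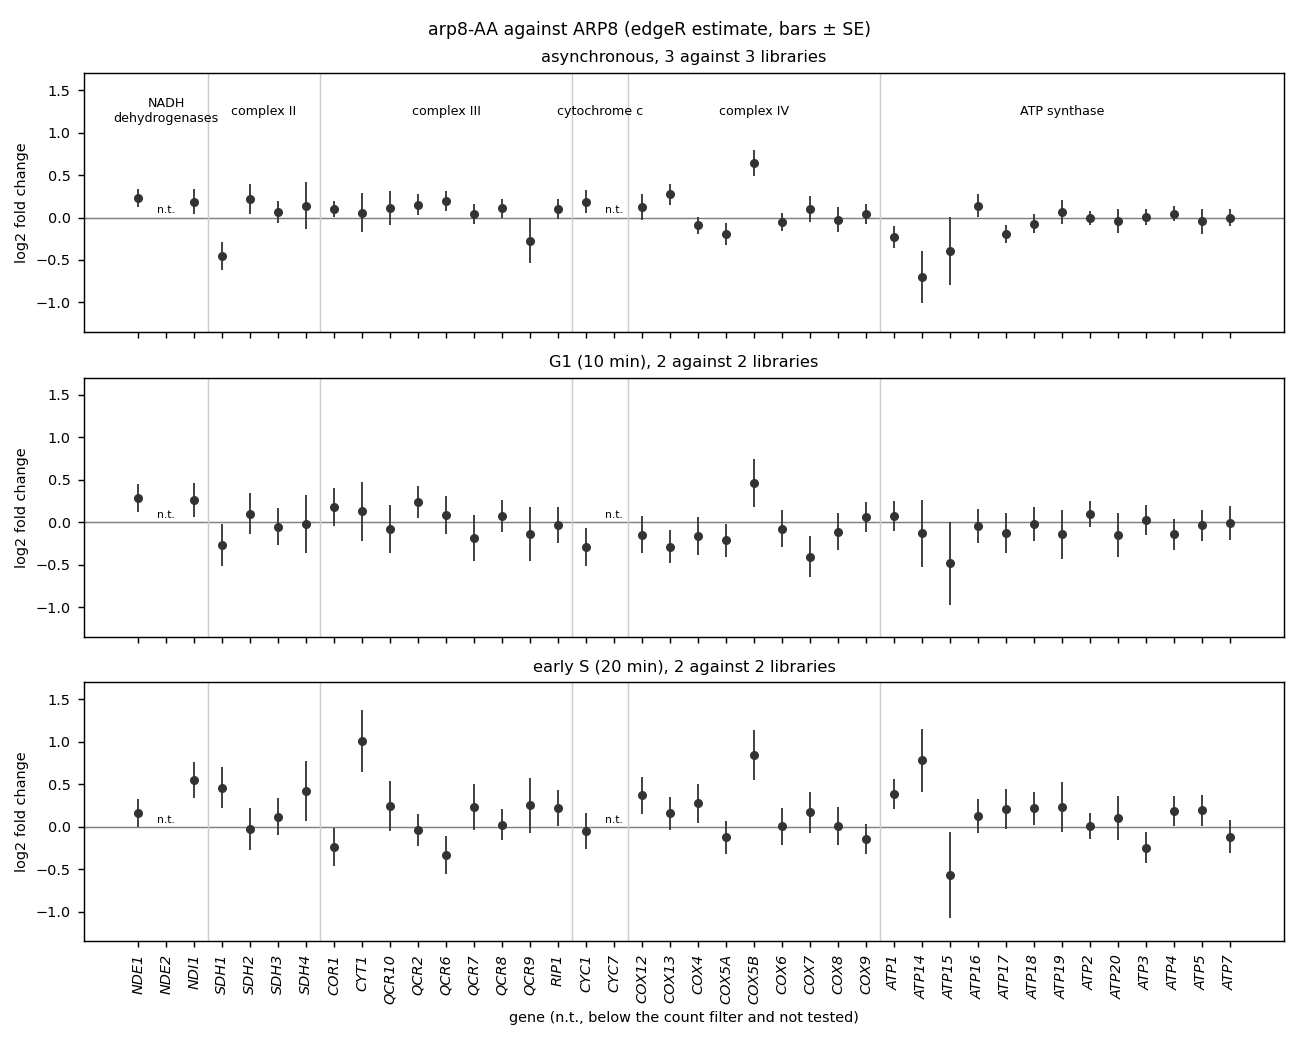
Log2 fold change of *arp8-AA* over *ARP8* for each gene with its standard error, in asynchronous cells, at 10 min and at 20 min, grouped by complex. Points above 0 are higher in *arp8-AA*, and n.t. marks *NDE2* and *CYC7*. *COX5B* lies above 0 in each panel (0.64, 0.46 and 0.85), *COX5A* below (-0.20, -0.21 and -0.13), and no gene passed an adjusted p of 0.05.

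Whether the genotype difference itself changes was tested with 2 interaction terms. Between 10 and 20 min 0 of 38 members and 0 of 5453 transcripts (0%) were called, and 110 transcripts but 0 members had an unadjusted p under 0.05 with edgeR. DESeq2 called 1 transcript and 0 members. The lowest p among the members were those of *SDH1* (0.73 ± 0.35 SE), *CYT1* (0.88 ± 0.51 SE) and *ATP14* (0.92 ± 0.54 SE), with an adjusted p of 0.962 each by edgeR. *SDH1* had 25.3 and 18.1 CPM in *ARP8* and 21.4 and 14.8 CPM in *arp8-AA* at 10 min, and 19.2 and 15.4 CPM against 23.8 and 23.6 CPM at 20 min. *ATP14* had 7.496 and 6.58 CPM against 7.28 and 5.89 CPM at 10 min, and 5.84 and 6.61 CPM against 8.15 and 13.4 CPM at 20 min.

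Between the asynchronous and the released cultures the genotype effect differed for 0 of 38 members and 0 of 5493 transcripts (0%), with 318 transcripts and 3 members at an unadjusted p under 0.05 with edgeR and 0 calls with DESeq2. These 3 were *ATP14* (-1.01 ± 0.41 SE), *SDH1* (-0.54 ± 0.24 SE) and *ATP1* (-0.44 ± 0.20 SE), each with an adjusted p of 0.845 by edgeR. Negative values mean that the log2 fold change of *arp8-AA* over *ARP8* was lower in the asynchronous cells. For all 3 genes *ARP8* replicate 1 had the highest CPM of the asynchronous *ARP8* libraries, as given above. As single libraries were left out, the values ran from -1.21 to -0.66 for *ATP14*, -0.70 to -0.44 for *SDH1* and -0.61 to -0.21 for *ATP1*.

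From 10 to 20 min no member was called within either genotype. In *ARP8* 0 of 38 members were called against 6 of 5453 transcripts (0.110%), and the members' median log2 change was -0.21 with 28 of 38 below 0, against -0.02 over all transcripts. The median size of the change, whatever its sign, was 0.23 for members and 0.20 for all transcripts. A fit of edgeR to the released *ARP8* libraries alone called 95 transcripts and 0 members. In *arp8-AA* 0 of 38 were called against 1 of 5453 (0.0183%), and the median was 0.03 with 21 of 38 above 0. The *ARP8* median ran from -0.50 to 0.17 as single libraries were left out. The core histone transcripts had median log2 changes of 1.18 in *ARP8* and 1.52 in *arp8-AA*, with 0 of 8 called and all 8 at an unadjusted p under 0.05 in both.

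In *ARP8* the lowest p were those of *COX5B*, *QCR10* and *ATP4*. *COX5B* had a log2 change of -0.78 ± 0.29 (SE), from 32.4 and 68.4 to 27.7 and 30.5 CPM (adjusted p = 0.388 by edgeR), and in *arp8-AA* -0.39. *QCR10*, a small subunit of complex III, had 27.6 and 33.9 CPM at 10 min and 23.1 and 15.1 CPM at 20 min in *ARP8*, and 40.4 and 21.9 CPM and then 27.0 and 18.3 CPM in *arp8-AA*. *ATP4* had 341 and 394 CPM at 10 min and 317 and 254 CPM at 20 min in *ARP8*, and 395 and 282 CPM and then 342 and 306 CPM in *arp8-AA*. For all 3 genes the *ARP8* groups did not overlap and replicate 2 of *ARP8* had the larger fall in CPM. Of the 38 members in *ARP8*, 6 were higher and 7 lower at 20 min without overlap. Over all 5453 transcripts these counts were 866 higher and 842 lower.

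*CYC1* was the member with the largest positive stage value in *ARP8* (0.43 ± 0.22 SE) and the lowest p in *arp8-AA* (0.67 ± 0.22 SE, adjusted p = 0.382 by edgeR). It had 42.6 and 39.8 CPM at 10 min and 63.1 and 48.1 CPM at 20 min in *ARP8*, and 28.7 and 37.2 CPM and then 59.3 and 48.1 CPM in *arp8-AA*. The times did not overlap in either genotype. Of the 38 members in *arp8-AA*, 6 were higher and 1 lower at 20 min without overlap, against 649 higher and 611 lower of 5453 transcripts. *ATP1* had 183 and 164 CPM at 10 min and 207 and 248.6 CPM at 20 min in *arp8-AA* (0.40 ± 0.18 SE, adjusted p = 0.485 by edgeR), and 189 and 143 CPM and then 186 and 166 CPM in *ARP8*. *ATP14* had the largest positive value in *arp8-AA* (0.74 ± 0.37 SE, adjusted p = 0.536 by edgeR), with the CPM given above, in which replicate 2 at 20 min was the highest. *ATP18*, the member of highest TPM, had 44.2 to 60.3 CPM in all 8 released libraries.

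**Figure D4:**
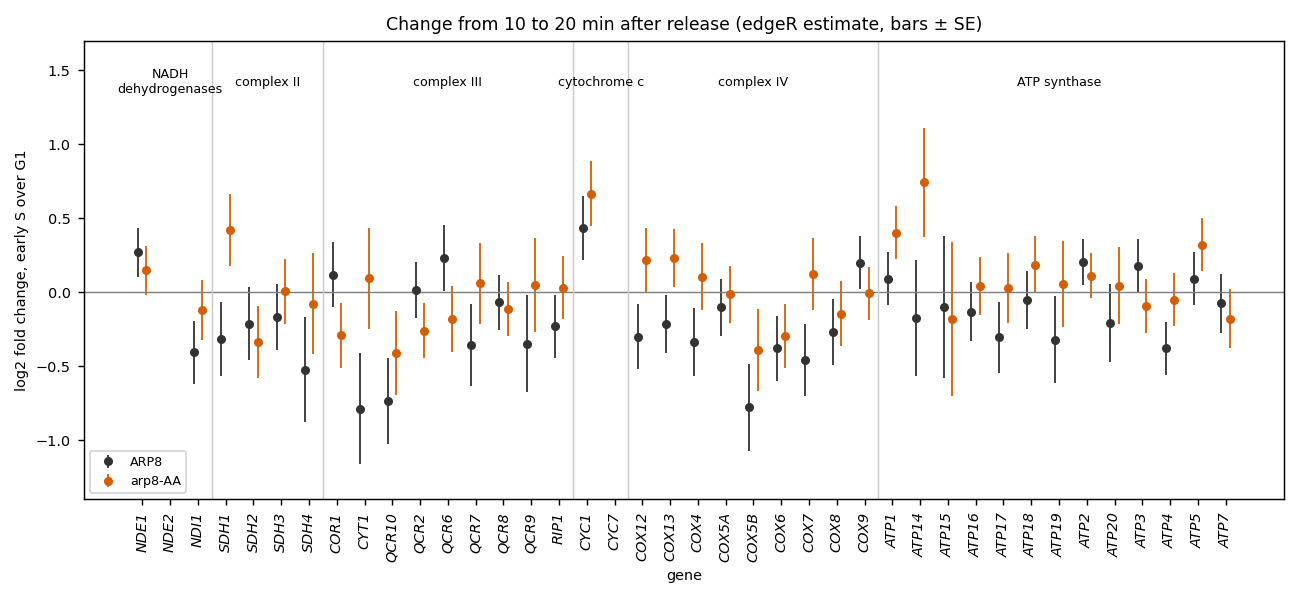
Log2 change from 10 to 20 min after release for each gene, with its standard error, in *ARP8* (black) and *arp8-AA* (orange), grouped by complex. Most black points lie below 0 (28 of 38) and the orange points lie on both sides (21 of 38 above 0). *CYC1* lies above 0 in both genotypes (0.43 and 0.67).

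The mitochondrially encoded partners and other genes of respiration were compared from lists of general yeast knowledge. The list of mitochondrially encoded genes holds subunits of the complexes and *VAR1*, a gene of the mitochondrial ribosome. Of these genes 3 of 7 tested were called in asynchronous cells, all lower in *arp8-AA*. *COX1*, the catalytic subunit of complex IV, had 1945, 1923 and 1737 CPM in *ARP8* and 996, 1135 and 808 CPM in *arp8-AA* (log2 fold change -0.94 ± 0.08 SE, adjusted p = 0.000796 by edgeR). *ATP6*, subunit a of the ATP synthase, had 483, 479 and 393 CPM against 260.0, 283 and 226 CPM (-0.82 ± 0.08 SE), and *COB*, cytochrome b, had 1921, 1922 and 1685 CPM against 1237, 1530 and 1088 CPM (-0.53 ± 0.08 SE). The groups of these 3 genes did not overlap. The values of *COX1* and *COB* are uncertain, since they share most of their sequence with overlapping intron reading frames. At 10 and 20 min 0 of 7 were called, and *COX1* had log2 fold changes of -0.82 ± 0.19 and -0.64 ± 0.19 (SE), again without overlap. All mitochondrially encoded transcripts, including those outside this list, took 1.502% to 1.64% of asynchronous *ARP8* counts and 0.951% to 1.22% of *arp8-AA* counts.

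In the tricarboxylic acid cycle, which supplies NADH and succinate, 3 of 13 genes rose in asynchronous *arp8-AA* cells and none fell. They were *IDH2* (log2 fold change 0.86 ± 0.14 SE, adjusted p = 0.0214 by edgeR) and *IDH1* (0.76 ± 0.14 SE, adjusted p = 0.0304), the subunits of NAD-dependent isocitrate dehydrogenase, and *ACO1*, aconitase (0.60 ± 0.09 SE, adjusted p = 0.0214). *IDH2* had 297, 352 and 279 CPM in *ARP8* and 602, 453 and 638 CPM in *arp8-AA*. *IDH1* had 98.6, 75.6 and 63.7 CPM against 140.2, 119 and 142 CPM, and *ACO1* 786, 753 and 640 CPM against 1172, 967 and 1172 CPM. The groups of these 3 genes were also separate. Succinate dehydrogenase, the member of the cycle among the 40 genes, had 0 of 4 called.

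The assembly factors of the complexes had 0 of 33 called in asynchronous cells with 29 of 33 above 0 and a median of 0.19. Over all transcripts tested in these cells 49.5% were above 0. *ATP10*, needed to assemble the ATP synthase, had the largest value of the assembly factors (-1.11 ± 0.29 SE, adjusted p = 0.115 by edgeR). Coenzyme Q synthesis had 0 of 11 called (median 0.21, *COQ9* 0.59), heme synthesis 0 of 8 (median -0.03, *HEM1* -0.23) and the mitochondrial carriers 0 of 8 (median 0.03, *DIC1* 0.50, adjusted p = 0.0708 by edgeR). Further subunits and regulators of the complexes had 0 of 7 called, with a median of 0.35 and *STF2*, a factor of the ATP synthase inhibitors, at 0.59. The list drawn up for hypoxic genes had 0 of 9 called and a median of -0.10. It also holds *HYP2* (-0.57), so this median does not describe hypoxic genes alone. For *HYP2*, *ARP8* replicate 1 had 321 CPM and *ARP8* replicates 2 and 3 had 115 and 122 CPM. The *arp8-AA* libraries had 119 CPM or less, and the groups overlapped. Of the core histone genes 3 of 8 were called, *HTA1*, *HHT1* and *HHF1*, all lower (-0.39, -0.37 and -0.35), *HTB1* had -0.67 without a call (adjusted p = 0.304 by edgeR), and the MAT a genes had 0 of 5 called with *MFA2* at -0.78.

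Of the respiratory regulators 0 of 15 were called in asynchronous cells, with a median of -0.15 and *TUP1*, a general corepressor, at -1.24 ± 0.30 (SE, adjusted p = 0.0956 by edgeR). *TUP1* had 26.0, 10.1 and 7.58 CPM in *ARP8* and 9.30, 4.44 and 4.15 CPM in *arp8-AA*. It was lower in every replicate pair, but replicate 1 was the highest in both genotypes and the groups overlapped. *HAP4*, the activating subunit of the CCAAT-binding complex, had 105, 51.2 and 43.5 CPM in *ARP8* and 109, 51.3 and 50.2 CPM in *arp8-AA*. Replicate 1 was the highest in both genotypes. At 20 min *HAP4* had 28.1 and 16.2 CPM in *ARP8* and 34.5 and 43.6 CPM in *arp8-AA*, without overlap (log2 fold change 0.87 ± 0.31 SE, adjusted p = 0.694 by edgeR), and at 10 min 31.6 and 15.1 CPM against 28.7 and 20.9 CPM. *HAP4* did not stand alone at 20 min: 14 of 15 regulators were above 0, 7 were higher without overlap and 0 were called. Over all 5453 transcripts 53.3% were above 0 at 20 min, and 835 were higher and 763 lower without overlap. *CYC8* had the largest value (0.998 ± 0.335 SE), with 44.3 and 99.6 CPM in *arp8-AA* replicates 1 and 2. *MIG1* and *MIG2* were also higher without overlap. *HAP1*, the heme-responsive activator, had 923 to 1625 CPM in asynchronous *ARP8* and 991 to 1274 CPM in *arp8-AA*. *ROX1* held 2.47 to 12.5 CPM in the asynchronous and 2.02 to 5.24 CPM in the released libraries.

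Glucose-repressed genes outside respiration had 0 of 15 called in asynchronous cells, with 12 of 15 above 0 and a median of 0.49, and *HXT6*, a hexose transporter, had the largest value (1.06 ± 0.54 SE). Their summed level was 1314, 1236 and 1147 CPM in *ARP8* and 3065, 1351 and 1477 CPM in *arp8-AA*, so that 1 mutant library stood far above the others. The members' median of 0.05 stands beside these values, and the part of the culture's glucose state in any result was not tested.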

How the data were processed

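Libraries of ribosome-depleted RNA from *ARP8* and *arp8-AA* cells were analysed (6 asynchronous, 8 released from α-factor). The authors had pseudoaligned the reads to the R64 transcriptome with kallisto 0.48 at default parameters, without regard to strand, and deposited per transcript estimated counts, which need not be whole, and TPM, with no filter. Reads of a gene and of an overlapping antisense gene can then not be told apart. RefSeq (R64) has no gene that overlaps a member. Of 6612 transcripts 5929 matched a RefSeq locus, and the rest were not checked for shared sequence.

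The estimated counts were rounded and tested with edgeR 4.0.16 (R 4.3.3), with TMM factors, filterByExpr, the replicate as a block and the two-sided quasi-likelihood F-test, adjusted over all transcripts tested (Benjamini-Hochberg) and called under 0.05. All 6 asynchronous libraries formed one fit and all 8 released ones another, whose contrasts share libraries, and the difference between experiments used all 14. CPM are TMM-normalized within each experiment, so genotypes were compared only within an experiment. The study adjusted for experimental batch, and the replicate number of the labels was the block here. The deviations of same-numbered libraries from their group means correlated across transcripts (r 0.173 to 0.324 asynchronous, 0.482 to 0.659 released). Asynchronous libraries of different number had r of -0.294 to 0.176, so the ranges touch. No replicate was a copy of another (chi-square per degree of freedom at least 1.60). The p-values measure the spread between these libraries. Each SE of a log2 fold change was derived from edgeR's F-test, as the size of the change divided by the square root of F. DESeq2 1.42.0, other scalings, no filter, no block, fewer libraries and a looser threshold (0.1) were alternatives. The test was also run on counts simulated without a replicate effect, so it was not checked under the replicate differences of these libraries. Sequences, coordinates and motif matches come from RefSeq R64, and protein identity from global alignments of translated coding sequences. Named genes are the 3 of lowest p in each comparison, the isoform sets, the extremes of TPM, listed genes that were called, *HAP4*, *HAP1*, *ROX1* and each list's largest asynchronous change. *COX13*, *ATP15* and the other genes without overlap were chosen after their values were seen. The members, lists and rule were set with earlier results of these data known. Python 3.11.15 was used for tables and figures.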

Additional observations from a re-analysis of the deposited data

How the results depend on the processing

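The number of members called stayed at 0 in 7 of the 8 comparisons under all alternatives run. In asynchronous cells it was 1 without the filter on low counts, *COX5B* with a log2 fold change of 0.64 and an adjusted p of 0.0224 by edgeR, where 158 transcripts were called in all against 49, and 1, again *COX5B*, at an adjusted p under 0.1, where 126 were. Without the replicate block it was 0 in every comparison, and *COX5B* then had a log2 fold change of 0.65 in asynchronous cells with an adjusted p of 0.356 by edgeR. DESeq2 called 0 members and gave *COX5B* no adjusted p. The fit on only the groups compared applies to 4 comparisons, since the average of both times and the interaction already use all 4 groups. Single libraries turned the sign of 3 named genes and of 5 member medians. *COX7* at 10 min had log2 fold changes of -0.79 to 0.066 as libraries were left out (0.066 without *ARP8* replicate 2). *COX5B* at 10 min had -0.048 to 1.13 (-0.048 without *ARP8* replicate 1), and *COX5A* at 20 min -0.34 to 0.12 (0.12 without *ARP8* replicate 1). Leaving out each library gave *COX5B* log2 fold changes of 0.46 to 0.84 in asynchronous cells and 0.60 to 1.06 at 20 min. In the same way the members' median ran from -0.02 to 0.09 in asynchronous cells, -0.31 to 0.26 at 10 min, -0.14 to 0.20 over both times, and -0.50 to 0.17 (*ARP8*) and -0.18 to 0.16 (*arp8-AA*) between the times. The asynchronous median was 0.12 with library totals only. The calls over all transcripts in asynchronous cells were 4 without the block, 33 with nuclear transcripts only and 88 with library totals only. Between edgeR and DESeq2 the calls over all transcripts were 49 and 35 in asynchronous cells, 0 and 5 at 10 min, 1 and 4 at 20 min, 5 and 28 over both times, and 6 and 28 (*ARP8*) and 1 and 38 (*arp8-AA*) between the times. Without the filter they were 3 at 20 min, 25 over both times, and 12 and 22 between the times. On only the groups compared they were 48 at 10 min, 2 at 20 min, and 95 and 0 between the times. The cause of these moves was not tested. Members with few counts (*CYC7*, *NDE2*, *ATP14*, *ATP15*) limit what could be detected.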

Other observations

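Levels in asynchronous *ARP8* cells and in *ARP8* cells at 10 min after release are given as values only, since culture, arrest and sequencing run together with the experiment and cannot be told apart. *ATP18*, the member of highest median TPM, had 889 ± 21.003 TPM (SD, n = 3) in asynchronous and 498 ± 31.4 TPM (SD, n = 2) in released *ARP8* cells. *CYC1* had 173 ± 11.8 TPM (SD, n = 3) and 135 ± 31.3 TPM (SD, n = 2). Without overlap in TPM, *ATP18*, *CYC1*, *COX9* and *ATP2* were higher in the asynchronous cells. In the same sense *QCR10*, *COX6*, *COX7*, *COX12*, *COX13*, *ATP4*, *ATP16* and *ATP17* were lower, and the remaining members overlapped. *COX6* had means of 224 TPM in asynchronous and 346 TPM in released cells, and *ATP4* 224 and 369 TPM.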
